A study of Arabidopsis thaliana with 6 samples.

Results

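Expansins and xyloglucan endotransglucosylase/hydrolases (XTHs) are secreted proteins that act on the growing plant cell wall. The genes described here are the 27 nuclear genes of Arabidopsis thaliana whose symbol contains EXPA, EXPB, EXLA, EXLB or XTH and which the array's gene annotation pairs with a probe set of their own. They are 27 of 13217 nuclear genes with such a probe set. They comprise 10 alpha-expansins, 4 beta-expansins, 3 expansin-like A genes, 1 expansin-like B gene and 9 XTH genes. The RefSeq gene table names 70 genes of these families by symbol or older name, so most of the families are not covered. A further 2 probe sets are listed with several genes each, including a gene of these families, and were not used.

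RNA was measured in cotyledons of 3 genotypes, all in the Col-0 ecotype, with 2 arrays for each. The groups were the wild type, sicy-192 plants and sicy-192 gun1-101 plants, called the double mutant here. All seedlings were 4 days old and had grown on medium with 100 mM sucrose with a daily 16 h light phase at 25 °C (100 µmol/m2/s) and 8 h dark phase at 22 °C. The sicy-192 allele is known as a gain-of-function change of an invertase located in plastids. GUN1 is a plastid protein through which plastids signal to the nucleus. The sucrose is shared by all groups, and no gun1-101 single mutant or sucrose-free group was analysed here. Neither mutated gene has a probe set under its name in the annotation, so the genotypes were not checked against their own transcripts.

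The plant wall stretches when contacts between cellulose and the xyloglucan chains that coat it give way. Alpha-expansins loosen these contacts without cutting a polymer and work best at acid pH. Beta-expansins are the related group that includes grass pollen allergens. Expansin-like A and B proteins share the expansin domains, but wall-loosening activity is not established for them. XTHs cut a xyloglucan chain and either join the cut end to another chain or leave it hydrolysed, so they can rebuild or thin the xyloglucan network. In young cotyledons, which enlarge in the light by cell expansion, genes of these families are commonly expressed.

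Values are probe set signals on the authors' linear scale, where each array has a trimmed mean of 500. Changes are differences of log2(signal + 16), which understate the change of dim probe sets, and a call means an adjusted p under 0.05 in limma over all 14785 tested probe sets. Of the 27 genes, 16 were bright enough to be tested and 11 were not. In bulk RNA, fewer cells of a type and less RNA per cell cannot be told apart. Replicates within a genotype correlated at r = 0.979 to 0.983 across the tested probe sets, and probe sets are not independent replicates. The bacterial spike bioB, an added control RNA, read 271 to 349 at its 3' end in the arrays numbered 1 and 21.5 to 28.7 in those numbered 2. For this reason changes are also given within each replicate number. A fit with that number as a block is named where it moved a count.

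In sicy-192 the alpha-expansins moved in opposite directions. EXPA20 was 4.55-fold higher than in wild type and EXPA4 1.59-fold higher, while EXPA8 was 3.68-fold lower and the beta-expansin EXPB1 1.83-fold lower (folds of signal + 16). None of the 5 tested XTH genes was called by limma, and 0 had an unadjusted p under 0.05. In all, 4 of the 16 tested genes were called, 2 higher and 2 lower, which is 25% against 23% of all tested probe sets (13.8% higher and 9.21% lower). The median change of the 16 was 0.09 and that of all tested probe sets 0.16. The sign of the members' median depends on the scaling. That median was -0.06 with quantile normalization and -0.10 with arrays centred on their medians (all probe sets 0.05 and -0.03). Over all 27 genes without the filter it was -0.07, and over the 10 above the 50th percentile 0.30 (all probe sets 0.09 and 0.16). With the replicate number as a block, 8 of the 16 were called (4 higher, 4 lower), against 36.6% of all probe sets. Leaving out sicy-192 replicate 2 gave 2 calls, with EXPA4 and EXPB1 lost. The genotypes did not overlap for 8 of the 16 genes, against 63.7% of all tested probe sets.

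In the double mutant, every member called against sicy-192 was lower. XTH16 was 2.23-fold lower, XTH19 2.92-fold, EXPA20 1.78-fold and EXPA4 1.59-fold. These 4 of 16 tested genes are 25%, against 20.7% of all tested probe sets called in either direction with 11.2% lower and 9.54% higher. Of the 16 changes 13 were below 0 (81.2%, against 54.5% of all tested probe sets), and their median was -0.46 against -0.05. Over all 27 genes, without the filter, it was -0.19 against -0.04. The groups did not overlap for 13 of the 16 genes, against 62.4% of all tested probe sets. With the replicate block 9 were called, 8 lower and 1 higher, against 33.3% of all probe sets. Leaving out double mutant replicate 1 left 1 call, XTH16. Leaving out double mutant replicate 2 left 2 calls, as did leaving out sicy-192 replicate 1.

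Between the double mutant and wild type, 5 members were lower and 1 was higher. EXPA8 was 3.25-fold lower, EXPB1 2.50-fold, XTH19 2.32-fold, XTH16 2.13-fold and EXPB3 1.87-fold, and EXPA20 was 2.56-fold higher. The 6 called genes are 37.5% of those tested, against 30.1% of all tested probe sets, of which 12.8% were called lower. The median change of the 16 was -0.53 and that of all tested probe sets 0.07. It was -0.32 over all 27 genes without the filter and -0.20 over the 10 genes above the 50th percentile (all probe sets 0.01 and 0.09). For 11 of the 16 the genotypes did not overlap, against 66.8% of all tested probe sets. With the replicate block 9 were called, against 43% of all probe sets. These comparisons share arrays, so their values are given side by side and not as separate support for one another. Without wild-type replicate 1 the count was 4, when EXPB1 and XTH19 were not called.

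**Figure D1:**
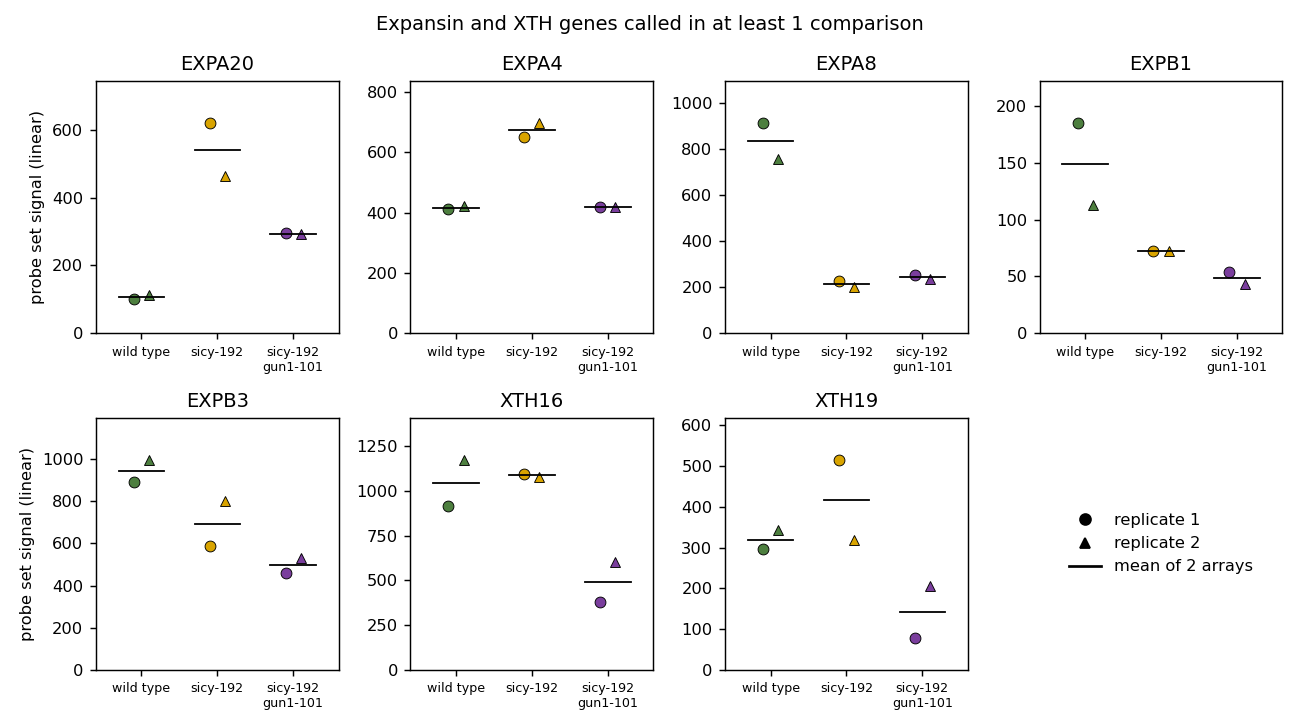
Probe set signal (linear, vertical axis from 0) of the 7 genes called in at least 1 comparison, by genotype. Circles are replicate 1 arrays, triangles replicate 2 arrays and lines the mean of both arrays. EXPA20 was at 100.1 and 111 in wild type, 622 and 464 in sicy-192 and 296 and 293 in the double mutant, while EXPA8 was at 914 and 756 in wild type and at or below 253 in all 4 mutant arrays.

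Among the alpha-expansins, EXPA20 (AT4G38210) had the largest change of the 16 in sicy-192. Its signals were 100.1 and 111 in wild type, 622 and 464 in sicy-192 and 296 and 293 in the double mutant. No genotype overlapped another, and the double mutant lay between the others. The log2 change in sicy-192 was 2.19 ± 0.19 (SE, adjusted p = 9.15e-05 in limma), with 2.46 within the arrays numbered 1 and 1.92 within those numbered 2. Between sicy-192 and the double mutant it was -0.83 ± 0.19 (adjusted p = 0.0142 in limma). That fall was not called without sicy-192 replicate 1 (-0.63, adjusted p = 0.116), double mutant replicate 1 (0.0649) or double mutant replicate 2 (0.0775). The double mutant remained above wild type by 1.35 ± 0.19 (adjusted p = 0.00117 in limma).

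EXPA4 (AT2G39700) was higher in sicy-192 alone of the 3 genotypes. Its signals were 412 and 422 in wild type, 649.8 and 697 in sicy-192 and 419 and 418 in the double mutant. The sicy-192 arrays lay above the other 4, which spanned 412 to 422. The rise in sicy-192 was 0.67 ± 0.14 on the log2 scale (SE, adjusted p = 0.00996 in limma) and the fall from there to the double mutant -0.67 ± 0.14 (adjusted p = 0.0113). The double mutant differed from wild type by 0.01 (95% interval -0.32 to 0.33). Without sicy-192 replicate 2 neither change was called (adjusted p = 0.0628 and 0.0659). The fall was also lost without double mutant replicate 1 (0.0609) or replicate 2 (0.0689), and the rise with arrays centred on their medians (0.48, adjusted p = 0.0553).

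EXPA8 (AT2G40610) was lower in both mutants. Wild-type signals were 914 and 756, those of sicy-192 227 and 202, and those of the double mutant 253 and 236. The wild type stood apart from both mutants, which were close to each other. The log2 change was -1.88 ± 0.17 in sicy-192 (SE, adjusted p = 0.000105 in limma) and -1.70 ± 0.17 in the double mutant against wild type (adjusted p = 0.000216). Within replicate numbers it was -1.94 and -1.83 in sicy-192. Between the mutants the change was 0.18 with a 95% interval of -0.20 to 0.56, which did not pass (adjusted p = 0.497 in limma). Both calls against wild type held under all 18 alternatives run, of which some leave the change of a member as it was.

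The other 3 tested alpha-expansins were not called in any comparison. EXPA16 (AT3G55500) had signals of 97.9 and 70.3 in wild type, 65.4 and 30.3 in sicy-192 and 57.6 and 35.7 in the double mutant. Both mutants lay below wild type, but the change of -0.69 in sicy-192 had an interval of -1.48 to 0.10 (adjusted p = 0.186 in limma). EXPA15 (AT2G03090) had signals of 442 and 327 in wild type, 306 and 329 in sicy-192 and 305 and 297 in the double mutant. EXPA9 (AT5G02260) ranged from 177 to 288 over the 6 arrays, with every pair of genotypes overlapping. The highest EXPA9 value was in a sicy-192 array and the lowest in a double mutant array.

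Of the beta-expansins, EXPB1 and EXPB3 were tested and both had their lowest signals in the double mutant. EXPB1 (AT2G20750) had signals of 185 and 113 in wild type, 72.2 and 72.5 in sicy-192 and 53.8 and 43.6 in the double mutant. No genotypes overlapped, and the wild-type arrays differed most from each other. The change was -0.87 ± 0.28 in sicy-192 (SE, adjusted p = 0.0489 in limma) and -1.32 ± 0.28 in the double mutant against wild type (adjusted p = 0.00731). The first of these calls was lost under 8 of 17 alternatives, among them leaving out any 1 array other than wild-type replicate 2. Without wild-type replicate 1 it was -0.55 (adjusted p = 0.272), and the double mutant's change was -1.0 (adjusted p = 0.0525). With sicy-192 replicate 1 or 2 left out, the adjusted p of the sicy-192 change was 0.145 or 0.144. With replicate 1 or 2 of the double mutant left out, it was 0.0635 or 0.062.

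EXPB3 (AT4G28250) had signals of 892 and 997 in wild type, 588 and 801 in sicy-192 and 462 and 533 in the double mutant. Each genotype lay below the one before it with no overlap. Against wild type the double mutant's log2 difference was -0.91 ± 0.18 (SE, adjusted p = 0.00592 by limma), a call that held under all 18 alternatives. The steps on either side of sicy-192 were -0.45 (adjusted p = 0.102) and -0.46 (adjusted p = 0.105). With the replicate block both steps passed (adjusted p = 0.0206 and 0.0209).

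None of the 3 tested expansin-like genes was called by limma, against 23%, 20.7% and 30.1% of all tested probe sets in the 3 comparisons. At an unadjusted p under 0.05 the count was 2 in sicy-192, 1 between the mutants and 2 in the double mutant against wild type. The share of all probe sets at that unadjusted limit was not computed, so these counts have no yardstick. EXLA2 (AT4G38400) had signals of 162 and 140.4 in wild type, 172 and 158 in sicy-192 and 90.5 and 109 in the double mutant. The double mutant lay below both other genotypes, with a change of -0.65 ± 0.21 against sicy-192 (SE, adjusted p = 0.053 in limma) and -0.53 against wild type (adjusted p = 0.0786). With the replicate block these passed (adjusted p = 0.023 and 0.0432). EXLA1 (AT3G45970) had signals of 144 and 154 in wild type, 259 and 201 in sicy-192 and 199 and 124 in the double mutant. The sicy-192 arrays lay above the others, with a change of 0.56 against wild type (adjusted p = 0.123, and 0.0401 with the replicate block). EXLA1 neighbours EXLA3 on the chromosome, and EXLA3 was too dim to test.

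EXLB1 (AT4G17030) had the widest spread between replicates of the 3. Its signals were 327 and 160 in wild type, 174 and 48.9 in sicy-192 and 87.5 and 68.1 in the double mutant. In each genotype the array numbered 1 was above the array numbered 2. The change was -1.15 ± 0.47 in sicy-192 (SE, adjusted p = 0.113 in limma) and -1.40 ± 0.47 in the double mutant against wild type (adjusted p = 0.052). Both passed with the replicate block (adjusted p = 0.00501 and 0.00118). Single arrays set the size of the sicy-192 change, which was -1.92 without replicate 1 of sicy-192 (adjusted p = 0.0111), -0.37 without its replicate 2 (0.556), -0.66 without wild-type replicate 1 (0.428) and -1.63 without wild-type replicate 2 (0.0586). The double mutant's change against wild type was -1.88 without wild-type replicate 2 (adjusted p = 0.0296) and -0.91 without wild-type replicate 1 (0.253). It also passed without sicy-192 replicate 1 (0.0112) or replicate 2 (0.00979), but not without either double mutant array (0.112 and 0.184).

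**Figure D2:**
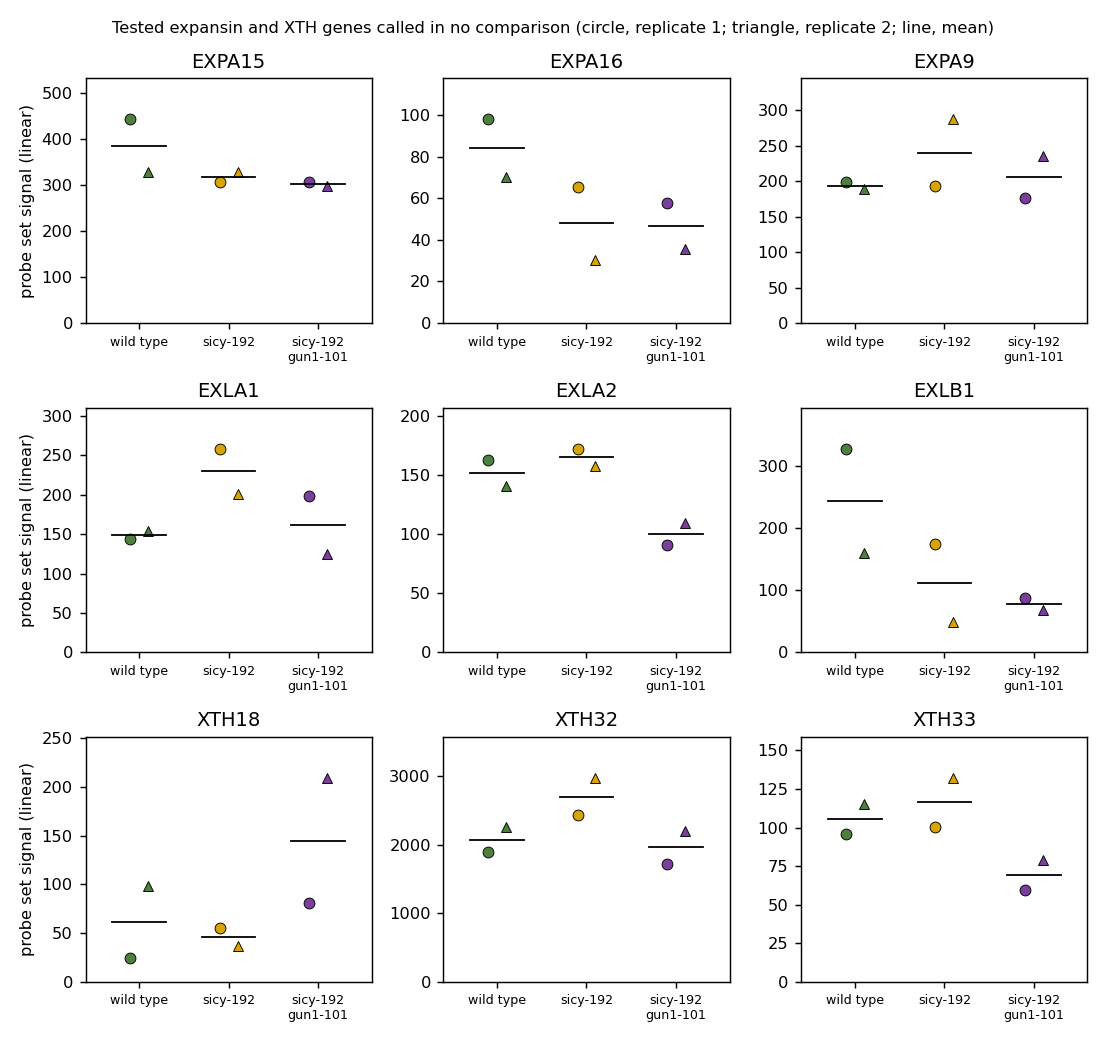
Probe set signal (linear, vertical axis from 0) of the 9 tested genes called in no comparison, by genotype. Circles are replicate 1 arrays, triangles replicate 2 arrays and lines the mean of both. EXLB1 ran from 48.9 to 327 and XTH18 from 24.8 to 209, with replicates far apart, while XTH33 and EXLA2 were lower in both double mutant arrays than in the other 4.

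XTH16 and XTH19 were lower in the double mutant and were not called in sicy-192. XTH16 (AT3G23730) had signals of 915 and 1174 in wild type, 1096 and 1077 in sicy-192 and 380.2 and 600.0 in the double mutant. Wild type and sicy-192 overlapped, and both double mutant arrays lay below them. The change was -1.16 ± 0.22 against sicy-192 (SE, adjusted p = 0.00579 in limma) and -1.09 ± 0.22 against wild type (adjusted p = 0.00582). Both calls held under all 18 alternatives run, with the same limit as for EXPA8. Between sicy-192 and wild type the difference was 0.07 with a 95% interval of -0.42 to 0.55. Within replicate numbers the change from sicy-192 to the double mutant was -1.49 and -0.83.

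XTH19 (AT4G30290), which in Arabidopsis also acts in the healing of cut stems, had signals of 297 and 343 in wild type, 516 and 318 in sicy-192 and 78.3 and 205 in the double mutant. The double mutant arrays lay below all others, but differed more from each other than those of wild type. The change was -1.55 ± 0.37 against sicy-192 (SE, adjusted p = 0.0166 in limma), with -2.50 in the arrays numbered 1 and -0.60 in those numbered 2. Against wild type it was -1.21 ± 0.37 (adjusted p = 0.0336). Without double mutant replicate 1 these changes were -0.93 (adjusted p = 0.0762) and -0.60 (adjusted p = 0.191). The first call was also lost without sicy-192 replicate 1 (-1.21, adjusted p = 0.0918), and the second without wild-type replicate 1 (0.0691) or replicate 2 (0.103). Without the filter on dim probe sets neither passed (0.0522 and 0.0842), and the second also did not without the variance trend (0.0538).

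XTH18 (AT4G30280) is the next gene to XTH19 on the chromosome and did not follow it. Its signals were 24.8 and 98.6 in wild type, 55.4 and 37.0 in sicy-192 and 80.6 and 209 in the double mutant. Wild type and the double mutant overlapped, and the double mutant was above sicy-192. The change from sicy-192 to the double mutant was 1.26 ± 0.52 (SE, adjusted p = 0.117 in limma), with 0.44 in the arrays numbered 1 and 2.09 in those numbered 2. It passed with the replicate block (adjusted p = 0.0237) and without wild-type replicate 1 (0.0425) or replicate 2 (0.048), but was 0.65 without double mutant replicate 2 (0.531). Against wild type the change was 1.11 (adjusted p = 0.135), which passed with the replicate block (0.0336). That change was 1.86 without wild-type replicate 2 (adjusted p = 0.0236), 0.36 without wild-type replicate 1 (0.621), 1.72 when replicate 1 of the double mutant was left out (0.0693) and 0.50 when its replicate 2 was (0.583). Whether the XTH18 and XTH19 probe sets also bind each other's transcripts was not tested, nor was the difference between their changes.

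XTH32 and XTH33 were tested and not called. XTH32 (AT2G36870), of the XTH subgroup with known hydrolase activity, had signals of 1891 and 2266 in wild type, 2433 and 2979 in sicy-192 and 1719.8 and 2210.1 in the double mutant. The sicy-192 arrays lay above the other 4, with a change of 0.38 against wild type (adjusted p = 0.154 in limma) and of -0.46 from sicy-192 to the double mutant (adjusted p = 0.0952). Both passed with the replicate block (adjusted p = 0.0238 and 0.00895). XTH33 (AT1G10550) had signals of 96.1 and 115 in wild type, 101 and 132 in sicy-192 and 59.4 and 78.9 in the double mutant. The double mutant lay below both other genotypes, with a change of -0.64 against sicy-192 (adjusted p = 0.102, and 0.0371 with the replicate block).

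One further XTH gene is reached only through an older name. EXGT-A3 (AT2G01850), also called XTH27 and known for a role in the water-conducting cells of leaves, had signals of 2723 and 2493 in wild type, 1785 and 1707 in sicy-192 and 2947 and 2388 in the double mutant. The sicy-192 arrays lay below the other 4. The change was -0.57 ± 0.15 in sicy-192 (SE, adjusted p = 0.0229 in limma) and 0.60 ± 0.15 from there to the double mutant (adjusted p = 0.0201). This is the reverse of the EXPA4 pattern. The changes of EXGT-A3 were not followed under the alternatives, so their dependence on the processing or on single arrays was not tested. The other gene reached that way, AT4G30380 (EXLB2), had a highest signal of 3.02 and was not tested.

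**Figure D3:**
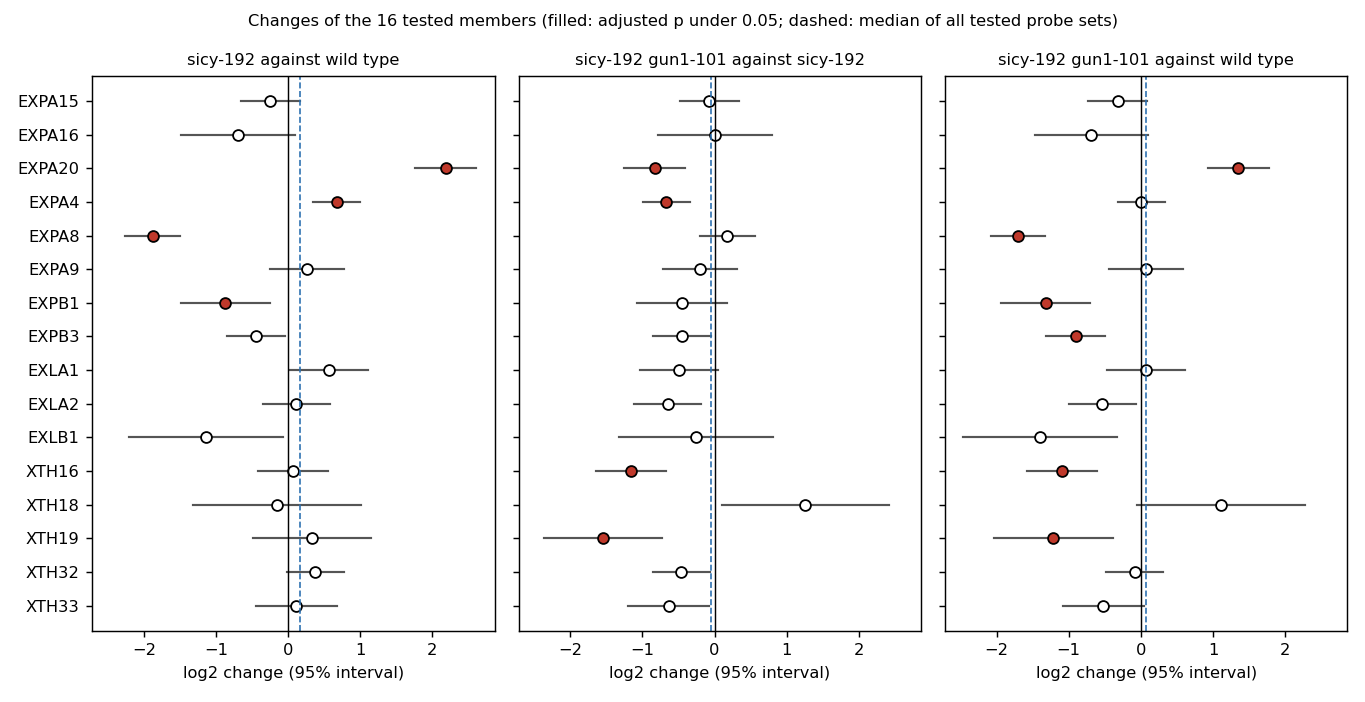
Log2 change of the 16 tested genes in each comparison (horizontal axis, difference of log2(signal + 16)), with 95% intervals from limma. Filled points have an adjusted p under 0.05 and the dashed line is the median of all tested probe sets. Of the 16 points, 7 lie below 0 in sicy-192 against wild type (43.8%, against 35.6% of all tested probe sets). In the double mutant 13 lie below 0 against sicy-192 (81.2%, against 54.5%) and 11 against wild type (68.8%, against 44.5%).

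The 11 genes below the filter had signals of 0.659 to 52.2 over the 6 arrays, and their changes were not tested. They were the alpha-expansins EXPA7, EXPA18, EXPA21 and EXPA24, the beta-expansins EXPB2 and EXPB5, the expansin-like gene EXLA3, and XTH20, XTH21, XTH26 and XTH29. EXPA7 and EXPA18, known for their expression in root hair cells, reached 27.97 and 52.2, both in double mutant replicate 1. EXPA7 was at 19.0 and 10.6 in wild type, 6.26 and 3.17 in sicy-192 and 27.97 and 18.8 in the double mutant. XTH26, also known from root hairs, reached 3.48, and XTH21, known from roots, 1.21. The XTH20 signal, of a gene that acts with XTH19 in cut stems, ranged from 5.68 to 38.4. EXPA18 was the nearest gene below the filter, with a mean log2 value of 5.58 against a limit of 6.05, and EXPA16 the nearest above it at 6.17.

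**Figure D4:**
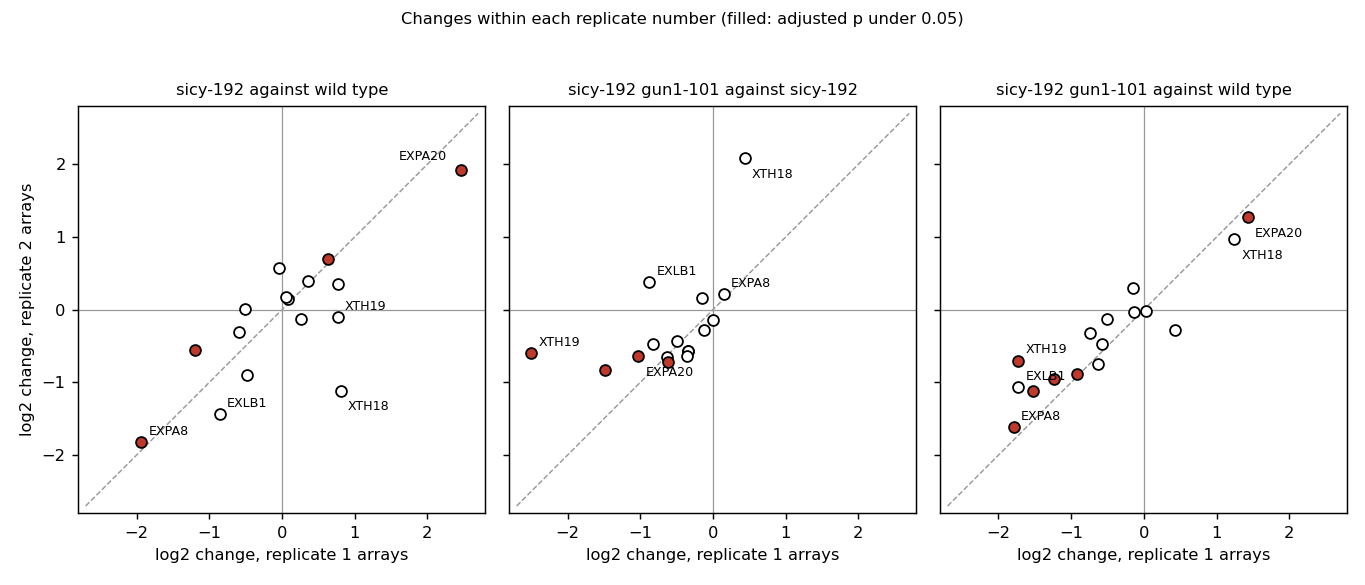
Log2 change of the 16 tested genes within the replicate 1 arrays (horizontal axis) and within the replicate 2 arrays (vertical axis) for each comparison. Filled points were called, and the dashed line marks equal change. EXPA8 (-1.94 and -1.83 in sicy-192) lies near the line, while XTH19 (-2.50 and -0.60) and XTH18 (0.44 and 2.09) in the double mutant against sicy-192 lie far from it.

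Other wall genes were read from lists of symbols, of which the annotation names few. Of 15 endo-1,4-beta-glucanase genes of family GH9, 7 were tested. None was called by limma in sicy-192, against 23% of all tested probe sets (0 also at an unadjusted p under 0.05). In the double mutant 3 of the 7 were lower than in sicy-192, and the same 3 were lower than in wild type. That is 42.9% of those tested, against 20.7% and 30.1% of all tested probe sets called. GH9C2 had a sicy-192 signal of 1239.9 ± 121 and a double mutant signal of 539 ± 115 (SD, n = 2 each), a log2 difference of -1.19 (adjusted p = 0.0022 in limma). GH9B8 changed by -1.25 and GH9B7 by -0.73. The median of the 7 was -0.73 in this comparison, against -0.05 for all tested probe sets.

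Genes that make xyloglucan, on which XTHs act, were represented by 5 CSLC genes, whose family includes synthases of its glucan backbone. In sicy-192 limma called 0, against 23% of all tested probe sets (0 at an unadjusted p under 0.05). In the double mutant 1 of the 5 was lower than in sicy-192 (20%, against 20.7% of all tested probe sets called) and 2 were lower than in wild type (40%, against 30.1%). CSLC5 (AT4G31590) had signals of 510.1 ± 30.8 (wild type), 513 ± 7.46 (sicy-192) and 307 ± 6.39 (double mutant; SD, n = 2 each). Its log2 change was -0.71 against sicy-192 (adjusted p = 0.00967 in limma), and CSLC04 changed by -0.77 against wild type (adjusted p = 0.0304). COB, a protein needed for oriented cellulose deposition, was the single gene of the cellulose list. It was lower in the double mutant than in wild type (-0.61, adjusted p = 0.0187 in limma). COB was not called in sicy-192 (-0.31, adjusted p = 0.19 in limma) or between the mutants (-0.30, adjusted p = 0.212). Of 3 tested pectin genes 1 was called in sicy-192 and between the mutants (33.3%, against 23% and 20.7%), the pectin methylesterase gene ATPMEPCRB. It rose in sicy-192 (1.15, adjusted p = 0.00997) and fell from there to the double mutant (-1.36, adjusted p = 0.00506). Between the double mutant and wild type 0 of the 3 pectin genes were called, against 30.1% of all tested probe sets.

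Hormone and light genes linked to expansion growth were also few. Of 6 tested auxin response genes, 1 rose and 1 fell in sicy-192 (33.3%, against 23% of all tested probe sets called). There GH3.9 of the auxin-conjugating enzyme family had a change of -2.03 (adjusted p = 0.000282 in limma) and the Aux/IAA gene IAA34 of 1.44 (adjusted p = 0.011). Both went the other way in the double mutant relative to sicy-192 (1.01 and -1.36), the 2 called there of 6 (33.3%, against 20.7%). Against wild type 3 of the 6 were called in the double mutant (50%, against 30.1%). These were lower GH3.9 (-1.02) and GH3.3 (-1.01) and higher GH3.17 (0.65). Of 3 tested gibberellin genes 0 were called in sicy-192 (against 23%) and 1 was called between the mutants (33.3%, against 20.7%). This was the receptor gene GID1B, which rose from 119 ± 12.1 (sicy-192) to 414 ± 148 (double mutant; SD with n = 2), a log2 difference of 1.63 (adjusted p = 0.0023 in limma). Against wild type 2 of the 3 were higher in the double mutant (66.7%, against 30.1%), GID1B (1.92) and GID1A (0.57, adjusted p = 0.0411). HYH, a light-signalling transcription factor, was called higher in each comparison, with 0.49 in sicy-192, 0.98 from there to the double mutant and 1.47 against wild type. The lists of brassinosteroid genes and of arabinogalactan and extensin proteins have no gene in the annotation.

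The mesophyll and guard cell markers varied with genotype too, while the sum of the root markers, nearly all of it PYK10, overlapped among all genotypes. Of 8 mesophyll markers, which are photosynthesis genes, 5 are named. Their summed signal was 90147 to 119942 in wild type, 29778 to 39723 in sicy-192 and 54444 to 69856 in the double mutant. These markers were thus present in all arrays and lowest in sicy-192. Of 3 guard cell markers 1 is named, FAMA, a regulator of guard cell formation. It was at 145 to 159 in wild type, 83.6 to 89.1 in sicy-192 and 72.0 to 79.1 in the double mutant. Of 9 root and root hair markers 3 are named, and their sum was 16938 to 21980 over the 6 arrays, nearly all of it PYK10 (16879 to 21943), which cotyledons of young seedlings are also known to hold. The other named root hair markers, EXPA7 and EXPA18, were near the floor as given above and hardly enter that sum. EXPA18 was at 40.8 to 52.2 in the double mutant, 16.5 to 34.3 in wild type and 23.9 to 31.0 in sicy-192. EXPA7 was at 18.8 to 27.97 in the double mutant, 10.6 to 19.0 in wild type and 3.17 to 6.26 in sicy-192. Changes of both were not tested. None of the listed seed, xylem or phloem markers has a probe set of its own in the annotation. The part of these shifts in the changes of expansin and XTH genes was not tested.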

How the data were processed

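Cotyledon RNA of 6 samples was hybridised to 1-colour Affymetrix arrays after biotin labelling, per the labels' protocols. The authors deposited 1 linear intensity per probe set. The submitters' processing notes name GCOS, without version or role. The build is not given in the sources used here, and no coordinates are printed. Each deposited column has a 2% trimmed mean of 500, found from the values. Arrays were rescaled to that mean, 16 was added and log2 taken. Of 22746 probe sets (64 controls left out), the 14785 with a mean above the 35th percentile entered 1 two-sided limma fit of all 6 arrays by genotype (limma 3.58.1, R 4.3.3, moderated variances with an intensity trend, 3 residual and 6.27 prior degrees of freedom). P-values were adjusted over all of them (Benjamini-Hochberg). On simulated data the fit recovered 50%, 38% and 41% of changes of 1 in sicy-192, between the mutants and in the double mutant against wild type. For changes of 2 it recovered 90%, 82% and 77%. Of its calls, 6.04%, 6.25% and 4.07% were false. The simulation changed 100 probe sets of each size among 14785, while the real fit called 3402, 3060 and 4450. Adjusted p-values depend on how many probe sets change, so these rates need not hold for the real data.

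The labels call the 2 samples of each genotype biological replicates and say no more, so the spread behind p-values may be technical. Same-numbered arrays deviated together in all 3 pairs of genotypes (r = 0.436, 0.329 and 0.374 across probe sets). The number was therefore also used as a block. The number of arrays limits the precision.

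Genes were named from the array annotation and the RefSeq table (TAIR10.1), 1 probe set each. The members and lists were chosen with earlier results of these data known. The rule named every member, with full values for those called, those with a change of at least 1 and the 5 brightest, and up to 3 called genes of each list. Alternatives were other offsets, filters and scalings, no variance trend, only the arrays compared, the block, the mean of a gene's probe sets, older names, and leaving out each array, where the lone array left in a genotype is assumed to vary like those of the other genotypes.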

Additional observations from a re-analysis of the deposited data

How the results depend on the processing

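Of the 14 gene and comparison pairs called among expansin and XTH genes, 7 stayed called under every alternative run and 7 were lost under at least 1, with 0 reversed. The 7 that stayed were EXPA20 and EXPA8 in each mutant against wild type, EXPB3 in the double mutant against wild type, and XTH16 in the double mutant against each other genotype. With the replicate number as a block, the called genes went from 4 to 8 in sicy-192 against wild type, from 4 to 9 in the double mutant against sicy-192 and from 6 to 9 in the double mutant against wild type, and all calls without the block remained. Leaving out 1 array at a time gave 2 to 4, 1 to 5 and 4 to 7 called genes. With 2 arrays a group, each such fit leaves 1 genotype with a lone array that is assumed to vary like the others, so a call kept there is weak evidence of stability. The other settings, offsets, filters and scalings included, gave counts within 1.5 times those reported, while members' medians moved further with the filter. EXPB1 has no value with the filter at the 50th percentile, which leaves 10 of the 16 genes. The cause of these differences was not tested. Each member has 1 probe set, so averaging a gene's probe sets left its change as it was. Adding older names repeats the same fit, and the deposited scale is almost the rescaled one. These alternatives could hardly lose a call, so a count of alternatives passed overstates how far a call was tried. With 2 arrays a group, dim genes are the least certain, and the 11 below the filter have only signals.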
